A study of Homo sapiens with 6 samples.

Results

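The RNA levels of 9 target genes of the transcription factor p53 (CDKN1A, BTG2, MDM2, TP53INP1, ZMAT3, SESN1, FDXR, RRM2B and GDF15) were measured in A375 cells, a human melanoma line. The 9 genes were chosen by name as widely used targets, with earlier results of these data known. All 9 were found among the 58302 genes counted, of which 18836 received an adjusted p. The study asked how the chromatin protein HMGB2 alters the transcriptome. It compared 3 libraries of A375 cells stably transduced with an empty lentiviral vector with 3 libraries of A375 cells stably transduced with a lentiviral vector for HMGB2 overexpression. The study describes infection followed by drug selection for its stable lines. The promoter driving HMGB2 in this vector, and whether either line was a single clone, were not given in the sources used here. Its replicates are described as technical, each a separate cell pellet, so p-values measure the spread between pellets of a line and not between independent transductions. HMGB2 itself (ENSG00000164104) had normalized counts of 7250, 7729 and 7562 with the empty vector and of 15095, 16848 and 14609 with overexpression, a 2.07-fold rise with no overlap between groups (adjusted p = 4.4e-22).

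Reads assigned to genes ranged from 45925053 to 56755212 per library. Reads mapping to several places made up 2.58% to 4.89% of reads in 5 libraries and 10.6% in overexpression replicate 3. Empty vector replicate 3 stood apart from the other empty vector libraries, and counts of called genes are given with and without it below. Overexpression replicate 3 deviated in the same way (r = 0.349 across genes). The fit without empty vector replicate 3 keeps that library. In that fit, what the third libraries share and overexpression cannot be told apart. Of the melanocyte markers, MITF (1381 to 1719 normalized counts) and S100B (3346 to 3841) were clearly present. SOX10 was listed at 0 in every library, and the counting for either strand kept 0% of the reads that the strand-specific columns gave it. PMEL kept 3.37%, and MLANA, TYR and DCT stayed at or below 10.8 normalized counts. Of 10 markers of other cell types, the leukocyte markers PTPRC and CD3E and the endothelial marker CDH5 stayed at or below 13.6 normalized counts, whereas the keratinocyte keratin KRT14 was present at 421 to 694, with overlap between groups. The endothelial marker PECAM1, the fibroblast marker PDGFRA and the epithelial markers EPCAM and CDH1 each reached 10 counts in at least 3 libraries. Their log2 fold changes were 0.48, 0.33, -0.28 and 0.57 (adjusted p = 0.599, 0.43, 0.618 and 0.794). Each was called in 0 of 14 alternatives. The fibroblast collagen COL1A1 had 2087, 1609 and 3120 normalized counts with the empty vector and 2880, 2937 and 3938 with overexpression, so that empty vector replicates 1 and 2 lay below every overexpression library. Its log2 fold change was 0.52 (adjusted p = 0.208), and 0.82 without empty vector replicate 3 (adjusted p = 5.9e-07). It was called higher in 4 of 14 alternatives, and its part in the results below was not tested.

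The p53 protein is a stress-activated transcription factor that binds DNA as a tetramer and raises transcription of genes for cell cycle arrest, DNA repair, metabolism and cell death. Its own level is held low by MDM2, an E3 ubiquitin ligase that is also its target, so that activation of p53 usually raises MDM2 and CDKN1A together. In melanoma the pathway is more often restrained by loss of CDKN2A or by high MDM2 and MDM4 than by mutation of p53 itself.

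The p53 response element consists of a pair of decamers whose letters are loosely fixed around a CNNG core. To show what DNA the 9 genes have near their starts, both decamers of the p53 consensus, adjoining and with both cores intact, were searched within 3000 bases of each canonical start on hg38, on both strands, with up to 2 mismatches elsewhere. The outcome for RRM2B and TP53INP1 is not reported here. The best match of each of 5 genes is printed below 5′ to 3′ on the gene's strand, with capitals for bases that match the consensus and lower case for mismatches.
CDKN1A: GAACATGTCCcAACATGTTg
BTG2: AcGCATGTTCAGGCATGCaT
MDM2: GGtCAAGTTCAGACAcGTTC
ZMAT3: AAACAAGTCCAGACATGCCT
GDF15: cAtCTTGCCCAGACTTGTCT

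The match of CDKN1A lay 2256 bases upstream of its canonical start, at the 5′ edge of the annotated gene (chr6:36676449-36676468). That of BTG2 lay 1868 bases upstream, outside the gene (chr1:203303642-203303661). The match of MDM2 lay in an intron, 756 bases downstream of the start (chr12:68808923-68808942). ZMAT3 had the only match without a mismatch, in an intron 1612 bases downstream of the start (chr3:179070188-179070207, minus strand). The match of GDF15 lay 840 bases upstream of its canonical start, inside the annotated gene but outside the canonical transcript (chr19:18385308-18385327). No match was found in the windows of SESN1 and FDXR. Thus 5 of the 7 genes reported here held a match, against 930 of 20033 protein-coding genes (4.64%) and 15 of 32 other p53 targets (46.9%). A match without a mismatch was present for 16 protein-coding genes (0.0799%). These are matches of letters in a window and were not tested for binding.

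In levels per length, as RPKM (reads per kilobase of annotated exon and per 1000000 assigned reads), the 9 genes spanned a wide range. CDKN1A, which encodes the cyclin-dependent kinase inhibitor p21, was the highest by far with the empty vector, at 63.8 ± 2.85 RPKM (SD, n = 3). GDF15 (16.9 ± 3.63) and RRM2B (14.3 ± 1.4) followed, and their libraries overlapped. Below them the order was FDXR (10.03 ± 1.2), BTG2 (5.07 ± 0.165), MDM2 (3.98 ± 0.123), ZMAT3 (2.49 ± 0.143), SESN1 (1.23 ± 0.255) and TP53INP1 (0.294 ± 0.0659), with no overlap between neighbours from RRM2B downwards. With HMGB2 overexpression the order was the same except for GDF15, which at 7.20 ± 1.91 RPKM stood below FDXR (9.24 ± 0.457) and overlapped BTG2 (5.03 ± 0.235). The levels of MDM2 and SESN1 may be underestimates, since the counting kept 76.4% and 80.0% of the reads of the strand-specific columns, against 99.8% to 100% for the other members. Some reads in those columns may belong to overlapping genes, so the size of the shortfall is not known.

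**Figure D1:**
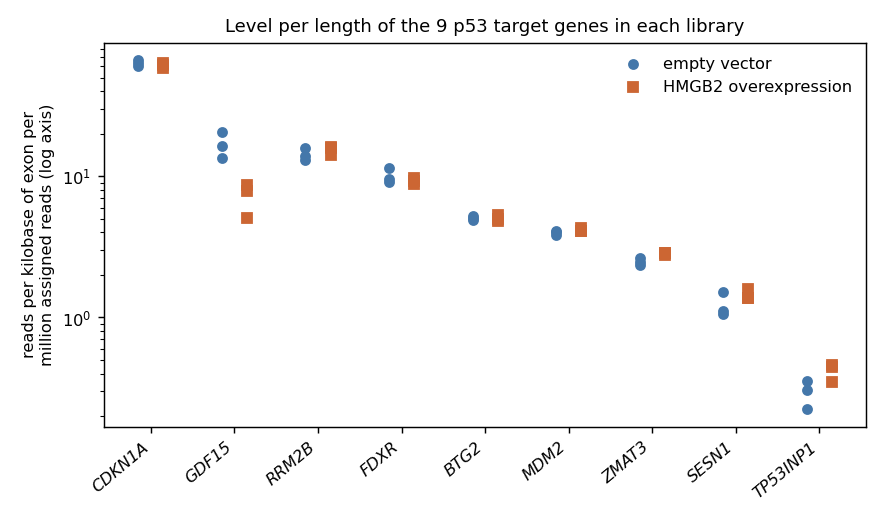
Level per length of the 9 p53 target genes (RPKM, log axis) in the 3 empty vector (circles) and 3 HMGB2 overexpression libraries (squares). CDKN1A lies highest at 58.9 to 66.5 RPKM, and GDF15 is the gene whose groups are farthest apart.

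Across the 9 genes, HMGB2 overexpression was accompanied by a fall of GDF15, a secreted stress cytokine, to 42.8% of its empty vector level, while the other 8 genes did not pass the test. In the DESeq2 fit over all genes 0 of the 9 were called higher and 1 was called lower at an adjusted p under 0.05, where 2.29% of all genes tested were called higher and 2.64% lower. At an unadjusted p under 0.05 1 gene was higher (TP53INP1) and 1 lower (GDF15), and edgeR gave the same counts at both thresholds. At an adjusted p under 0.05 edgeR called 215 of 16754 genes higher and 255 lower. The share of all genes at the unadjusted threshold was not computed. The median log2 fold change of the 9 genes was 0.07, against 0.00 (0.00272) over all genes. Groups did not overlap for 3 of the 9 (TP53INP1, ZMAT3 and GDF15), where 21.9% of all genes tested had no overlap. In whole-culture RNA, fewer cells expressing a gene and less RNA per cell cannot be told apart. Relative to the empty vector mean, the median of the 9 genes on the log2 scale was -0.06, -0.04 and 0.05 in the 3 empty vector libraries and 0.05, -0.02 and 0.15 in the 3 overexpression libraries, so that the groups overlapped.

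**Figure D2:**
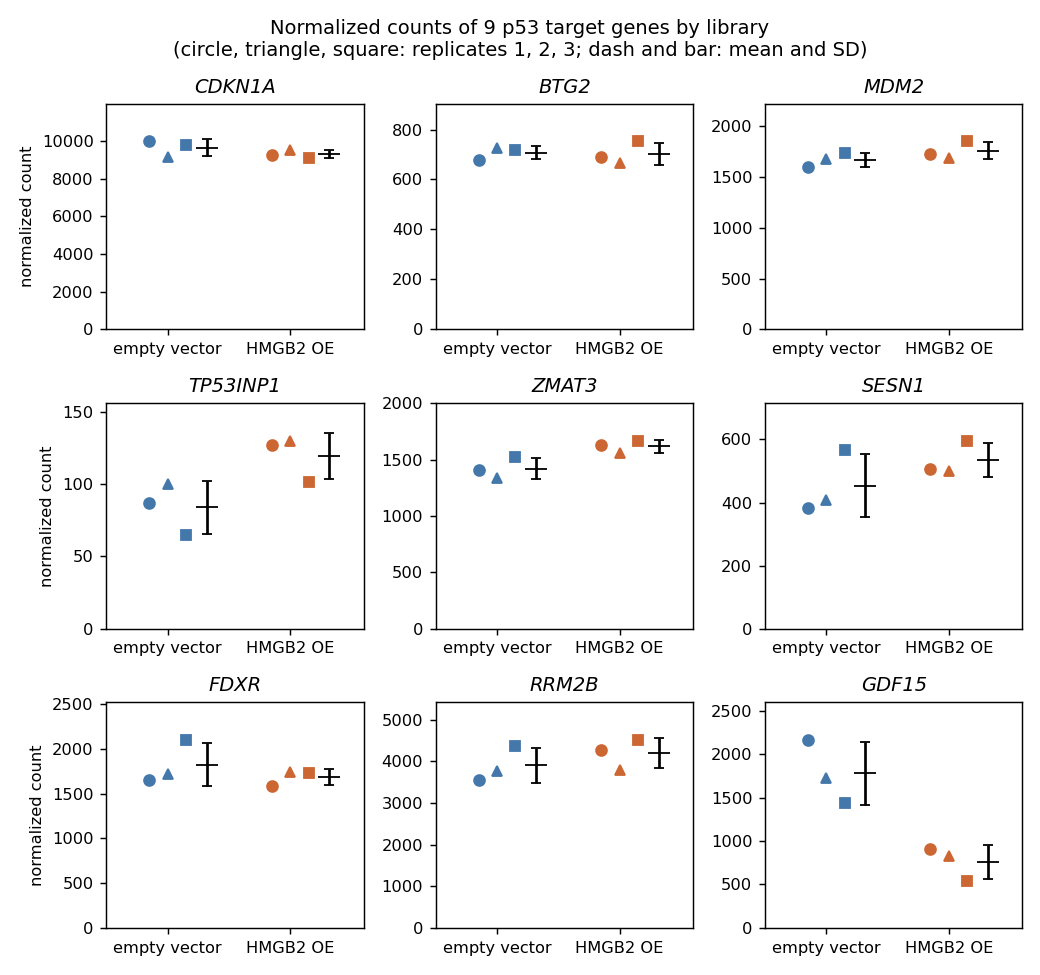
Normalized counts (y axes from 0) of the 9 p53 target genes in each library, with empty vector in blue and HMGB2 overexpression in orange; marks show replicates 1, 2 and 3, and the dash and bar show mean and SD. GDF15 lies between 1439 and 2164 with the empty vector and between 543 and 908 with overexpression, whereas the groups of CDKN1A, BTG2, MDM2, SESN1, FDXR and RRM2B overlap.

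Of the genes for cell cycle arrest, CDKN1A (ENSG00000124762; hg38 chromosome 6, 36676460 to 36687337) had 9988, 9163 and 9806 normalized counts across the empty vector libraries (replicates 1 to 3 in order, as for every gene below) and 9276, 9539 and 9124 with overexpression. The highest of the 6 libraries exceeded the lowest 1.09-fold, the tightest range among the 9 genes. Its log2 fold change was -0.05 (SE 0.09, 95% interval -0.23 to 0.13, adjusted p = 0.89), an interval that holds fold changes between 0.854 and 1.09. BTG2 (ENSG00000159388; chromosome 1, 203305491 to 203309602), an antiproliferative protein that recruits the RNA deadenylation machinery, had 677, 725 and 718 normalized counts with the empty vector and 690, 666 and 753 with overexpression. Overexpression replicates 2 and 3 were its lowest and highest library. Its log2 fold change of -0.01 (95% interval -0.24 to 0.23, adjusted p = 0.991) took either sign when single libraries were left out.

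MDM2 (ENSG00000135679; chromosome 12, 68808177 to 68845544), the negative feedback regulator of p53, had 1598, 1677 and 1733 normalized counts with the empty vector and 1730, 1691 and 1851 with overexpression. The groups overlapped, with the highest value in overexpression replicate 3. The log2 fold change was 0.07 (SE 0.10, 95% interval -0.13 to 0.28, adjusted p = 0.851). Of the 50-base words of its transcripts, 12.5% also occur in other annotated genes, a larger share than for any other of the 9 (0% to 4.44%).

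Among the genes that act in cell death, TP53INP1 (ENSG00000164938; chromosome 8, 94925972 to 94949378), a nuclear protein of stress-induced apoptosis and autophagy, was the lowest expressed, with 86.9, 100 and 64.4 normalized counts with the empty vector and 127, 130 and 101 with overexpression. Its groups did not overlap, although the closest libraries, at 100 and 101, nearly met. The log2 fold change of 0.51 (SE 0.25, 95% interval 0.0213 to 0.998) had an unadjusted p of 0.0408 and missed the threshold after adjustment (adjusted p = 0.315). It ranged from 0.36 to 0.66 over the alternatives and was called in 0 of 14. ZMAT3 (ENSG00000172667; chromosome 3, 178960121 to 179072215), an RNA-binding zinc finger protein that regulates splicing and RNA stability, had 1404, 1335 and 1524 normalized counts against 1630, 1556 and 1670. Its groups did not overlap either, but the log2 fold change of 0.19 (SE 0.11, 95% interval -0.02 to 0.40) did not pass the test (adjusted p = 0.442), nor did it under any of the 14 alternatives, with adjusted p from 0.0814 to 0.998.

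Of the metabolic and repair targets, SESN1 (ENSG00000080546; chromosome 6, 108984309 to 109094846), a sestrin that restrains mTORC1 signalling, had 384, 409 and 568 normalized counts with the empty vector and 508, 499 and 597 with overexpression. Empty vector replicate 3 alone lay inside the range of the overexpression libraries. The log2 fold change was 0.24 (SE 0.18, 95% interval -0.12 to 0.59, adjusted p = 0.639). Without empty vector replicate 3 it was 0.43 and was called (adjusted p = 0.0254), in a fit that called 8.31% of all genes tested higher and 9.46% lower. With replicates 1 and 2 of both groups alone it was 0.35 and was not called (adjusted p = 0.105). Whether this library differed for a technical reason was not tested.

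FDXR (ENSG00000161513; chromosome 17, 74862497 to 74873031), the mitochondrial ferredoxin reductase, had 1655, 1719 and 2101 normalized counts with the empty vector and 1588, 1740 and 1733 with overexpression. Here too empty vector replicate 3 was the highest library, and the remaining 5 lay between 1588 and 1740. The log2 fold change was -0.11 (SE 0.13, 95% interval -0.37 to 0.14, adjusted p = 0.805), and without that library it was 2.1e-05. RRM2B (ENSG00000048392; chromosome 8, 102204502 to 102238961), the p53-inducible subunit of ribonucleotide reductase, had 3552, 3777 and 4379 normalized counts against 4282, 3804 and 4518. Its groups overlapped, and replicate 3 was the highest of each group. Its log2 fold change was 0.11 (SE 0.13, 95% interval -0.14 to 0.35, adjusted p = 0.814).

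GDF15 (ENSG00000130513; chromosome 19, 18374731 to 18389176) encodes a secreted member of the TGF-β superfamily that is induced by p53 and also by the integrated stress response, the programme run by the translation-controlled transcription factor ATF4. It had 2164, 1726 and 1439 normalized counts with the empty vector and 908, 828 and 543 with overexpression. All 3 overexpression libraries lay below all 3 empty vector libraries, and replicate 3 was the lowest of each group. It fell by 1.22 on the log2 scale (SE 0.21, 95% interval -1.64 to -0.81, adjusted p = 8.5e-07). The call held in 14 of 14 alternatives, with a log2 fold change of -1.37 to -1.03 and adjusted p from 4.4e-29 to 0.0197, the last by edgeR. Its interval lay wholly below those of the other 8 genes, whose lowest bound was -0.37 (FDXR). None of its 50-base words occurs in another annotated gene.

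**Figure D3:**
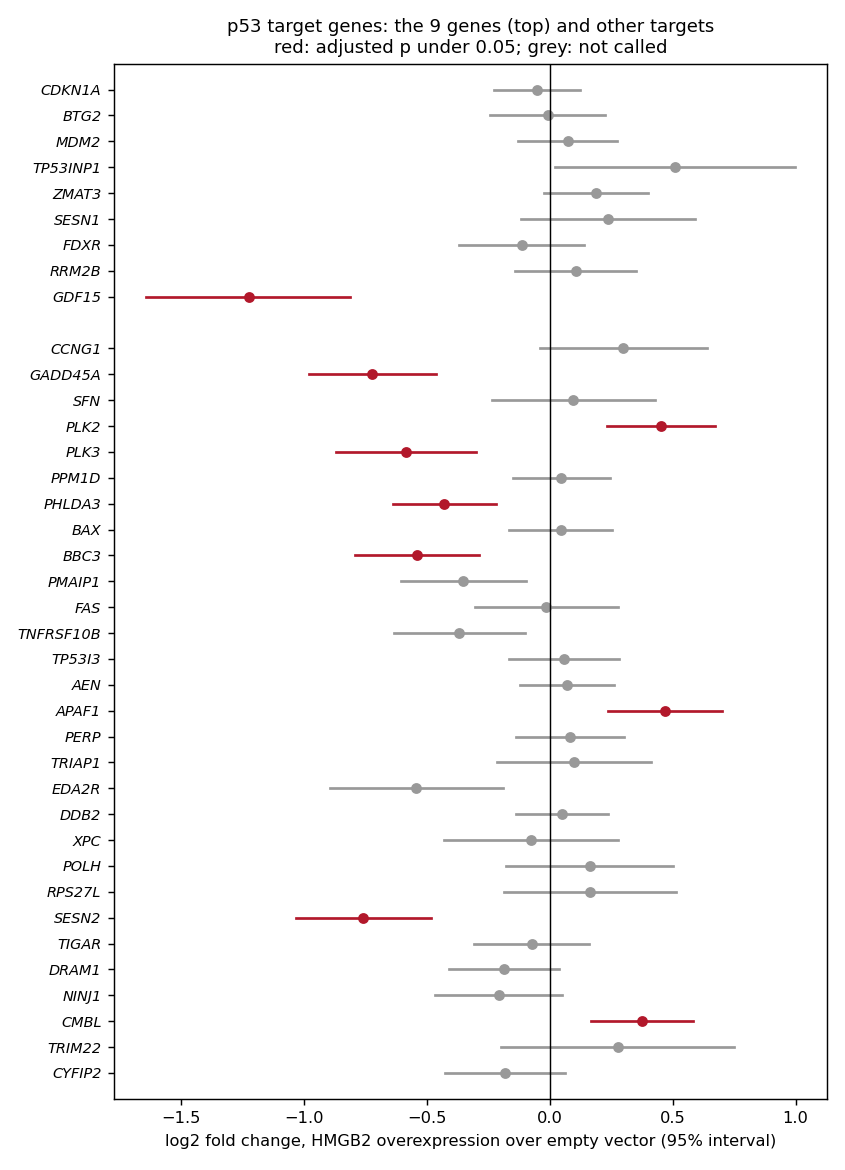
Log2 fold changes of HMGB2 overexpression over empty vector with 95% intervals for the 9 p53 target genes (top) and 29 other targets (bottom), with genes called at an adjusted p under 0.05 in red. GDF15 at -1.22 is the only red point in the top block, while the bottom block holds 3 called genes above 0 and 5 below.

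A wider list of 32 other p53 targets was examined beside the 9, and 30 of them received an adjusted p (SPATA18 and GLS2 were near 0 counts). Of the 30, 3 were called higher and 5 lower, with a median log2 fold change of 0.05, against 2.29% and 2.64% of all genes. Without empty vector replicate 3 the counts were 6 and 7, in a fit that called 8.31% of all genes higher and 9.46% lower. By edgeR they were 2 and 4, where 215 of 16754 genes were called higher and 255 lower. Leaving out any other library left 0 or 1 higher and 2 to 4 lower. Those fits called 155 to 213 genes higher and 208 to 262 lower, of 17706 to 18469 tested. The counts by role that follow are from the main fit, with 2.29% and 2.64% of all genes called. By role, the arrest genes gave 1 higher and 2 lower of 5, and the apoptosis genes 1 and 1 of 11. The signalling feedback genes gave 0 and 1 of 2, and the metabolic genes 0 and 1 of 3. The DNA repair genes DDB2, XPC and POLH, grouped with RPS27L, gave 0 and 0 of 4. The 5 genes placed in none of these roles gave 1 higher and 0 lower.

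GADD45A, a growth arrest and DNA damage protein, had 5420, 5021 and 4455 normalized counts with the empty vector and 3053, 3340 and 2636 with overexpression. It fell by 0.72 on the log2 scale (SE 0.13, adjusted p = 5.3e-06). SESN2, the stress-induced sestrin and a relative of SESN1, fell from 5115, 4853 and 4161 to 2948, 3063 and 2345 (log2 fold change -0.76, SE 0.14, adjusted p = 9.9e-06). These 2 genes were called lower in 14 of 14 alternatives. BBC3, which encodes the BH3-only apoptosis inducer PUMA, had 1086, 972 and 992 against 687, 774 and 636 (log2 fold change -0.54, adjusted p = 0.00129). PHLDA3, an inhibitor of AKT, fell from 8823, 8139 and 7329 to 6142, 6010 and 5885 (log2 fold change -0.43, adjusted p = 0.00262), and the stress kinase PLK3 from 1220, 935 and 1206 to 810, 714 and 716 (log2 fold change -0.58, adjusted p = 0.00277). For these last 3 genes the direction held in every alternative and the call in 11, 9 and 10 of 14 respectively. Leaving out empty vector replicate 1, or overexpression replicate 1 or 3, ended the call of BBC3 (adjusted p = 0.0901, 0.0772 and 0.0669). That of PLK3 ended without empty vector replicate 1 or overexpression replicate 2 or 3, and by edgeR (adjusted p from 0.0508 to 0.106), and that of PHLDA3 without any library other than empty vector replicate 3 (adjusted p from 0.0611 to 0.147).

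In the other direction, the polo-like kinase PLK2 rose from 2364, 2451 and 2751 normalized counts to 3204, 3495 and 3653 (log2 fold change 0.45, SE 0.11, adjusted p = 0.00269) and was called in 10 of 14 alternatives. APAF1, the scaffold of the apoptosome, and CMBL, a hydrolase, were the remaining called genes and were singled out after their values were seen. Their log2 fold changes were 0.47 (adjusted p = 0.00332) and 0.37 (adjusted p = 0.012), called in 9 and 8 of 14 alternatives. Of the most abundant uncalled targets, CCNG1, a cyclin that acts on MDM2, had 10332, 12081 and 16095 normalized counts against 16276, 13669 and 17440. Its log2 fold change of 0.30 had an adjusted p of 0.448, but without empty vector replicate 3 it was 0.50 (adjusted p = 2.2e-04). With replicates 1 and 2 alone it was 0.42 and was not called (adjusted p = 0.0641). Over the alternatives it ranged from 0.16 to 0.50, and CCNG1 was called higher in 3 of 14. PERP, a desmosomal and apoptotic membrane protein, had a log2 fold change of 0.08 (adjusted p = 0.844). PMAIP1, which encodes the BH3-only protein NOXA, had 6352, 6382 and 8036 against 5387, 5078 and 5810, with a log2 fold change of -0.35 (adjusted p = 0.103). It was called lower in 3 of 14 alternatives, namely with replicates 1 and 2 alone (adjusted p = 5e-04), with a replicate block (adjusted p = 2.4e-04) and with a term for the libraries numbered 3 (adjusted p = 5.3e-06).

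Empty vector replicate 3 also stood apart in KRT5, a keratinocyte marker, which had 5.05, 11.5 and 279 normalized counts with the empty vector and 250, 200 and 289 with overexpression. Its log2 fold change was 1.32 (adjusted p = 0.797) over all libraries and 4.86 (adjusted p = 2.9e-29) without that library. The part of that library in these results was not tested.

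Genes that act on p53 were then described. Of 18 regulators, 0 were called higher and 1 lower, with a median log2 fold change of -0.10, where 2.29% and 2.64% of all genes were called. At an unadjusted p under 0.05, 0 were higher and 2 lower by DESeq2, and 0 higher and 3 lower by edgeR, with no share of all genes computed at that threshold. The called gene was CDKN2A, whose locus encodes the kinase inhibitor p16 and, in another frame, the MDM2 antagonist ARF, which gene counts do not separate. It fell from 1139, 832 and 810 normalized counts to 580, 532 and 504 (log2 fold change -0.78, SE 0.17, adjusted p = 1.6e-04), in 14 of 14 alternatives. MDM4, the inhibitory partner of MDM2, was singled out after its values were seen and had a log2 fold change of -0.26 and was called in 0 of 14 alternatives. Without empty vector replicate 3, 2 of 17 regulators were called higher and 5 lower, against 8.31% and 9.46% of all genes in that fit.

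Downstream of p21, the DREAM and RB complexes repress cell cycle genes, and 20 of these were examined. Whether p21 acts on them in these cells was not tested. Of the 20, 0 were called in either direction by DESeq2 or by edgeR, and 3 were higher and 0 lower at an unadjusted p under 0.05 in both. No share of all genes was computed at that unadjusted threshold. Estimates were above 0 for 16 of 20, against 9500 of the 18836 genes tested, with a median log2 fold change of 0.19. The 3 genes by DESeq2, which like MKI67 below were named after their values were seen, were CCNB2, a mitotic cyclin (0.47), CDC25C, the phosphatase that activates CDK1 (0.31), and BUB1, a spindle checkpoint kinase (0.30). Without empty vector replicate 3, 10 were called higher and 1 lower (MKI67, the Ki-67 proliferation antigen), against 8.31% and 9.46% of all genes in that fit. With a term for the libraries numbered 3, 11 were called higher and 0 lower, where 8.71% and 8.61% of all genes were called. The replicate block called 8 higher and 0 lower, against 886 and 940 of 14552 genes tested in that fit. Replicates 1 and 2 alone called 10 higher and 1 lower, against 1203 and 1418 of 15028. Leaving out any other single library gave 0 calls. In empty vector replicate 3 the median of the list, relative to the empty vector mean on the log2 scale, was 0.11, inside the range of 0.09 to 0.25 of the overexpression libraries and above replicates 1 and 2 at -0.05 and -0.04.

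**Figure D4:**
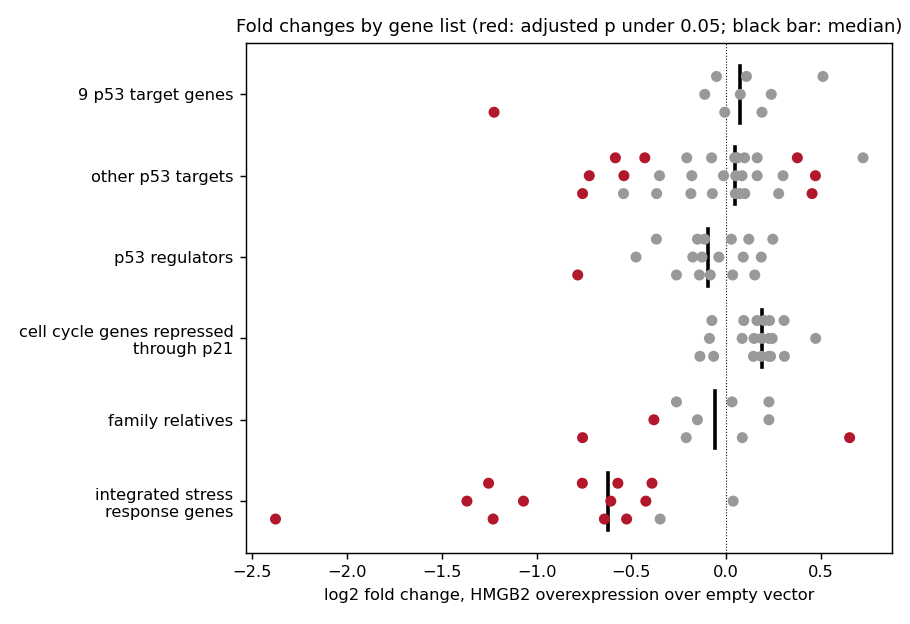
Log2 fold changes of HMGB2 overexpression over empty vector for the genes of each list with an adjusted p; red points are called and black bars mark medians. The integrated stress response genes have a median of -0.63 with 12 of 14 called lower, whereas the medians of the other lists lie between -0.10 and 0.19.

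Because GDF15 and SESN2 are also known targets of ATF4, 14 genes of the integrated stress response that are not among the p53 targets above were read in the same fit. Of the 14, 12 were called lower and 0 higher, against 2.64% and 2.29% of all genes, with a median log2 fold change of -0.63. Groups did not overlap for 13, against 21.9% of all genes. By edgeR 10 were called lower, against 255 of 16754 genes. Without empty vector replicate 3, 13 were called lower, against 9.46% of all genes in that fit. Leaving out any other single library left 9 to 11 called lower. Those fits called 208 to 262 genes lower, of 17706 to 18469 tested. The 6 with the smallest adjusted p were TRIB3, NUPR1, PHGDH, ASNS, PPP1R15A and DDIT3, each called in 14 of 14 alternatives. ATF4 itself, named after its values were seen, was called lower (log2 fold change -0.42, adjusted p = 1.9e-04) and in 12 of 14 alternatives. TRIB3, a pseudokinase that damps the response, had 29430, 25257 and 28817 normalized counts against 13628, 11905 and 9495 (log2 fold change -1.25, adjusted p = 1.9e-14). The stress-induced chromatin protein NUPR1 fell from 663, 594 and 223 to 109, 110 and 65.3 (log2 fold change -2.38, adjusted p = 2.6e-09). PHGDH, the first enzyme of serine synthesis, fell from 45488, 42103 and 32809 to 21592, 20102 and 15684 (log2 fold change -1.07), and asparagine synthetase (ASNS) from 173, 137 and 146 to 64.5, 62.1 and 49.5 (log2 fold change -1.37).

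PPP1R15A, the phosphatase subunit that ends the translational block, fell by 1.23 on the log2 scale (adjusted p = 4.4e-06). DDIT3, which encodes the transcription factor CHOP, fell by 0.76 (adjusted p = 4.6e-05). The counting kept 23.2% of the reads that the strand-specific columns gave it, some of which may belong to an overlapping gene. Its 6 libraries lay at 497, 448 and 543 against 303, 263 and 313. The list's median relative to the empty vector mean was 0.04, -0.05 and -0.02 (-0.015) in the empty vector libraries and -0.66, -0.55 and -0.71 in the overexpression libraries. The part of this response in the fall of GDF15 was not tested.

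**Figure D5:**
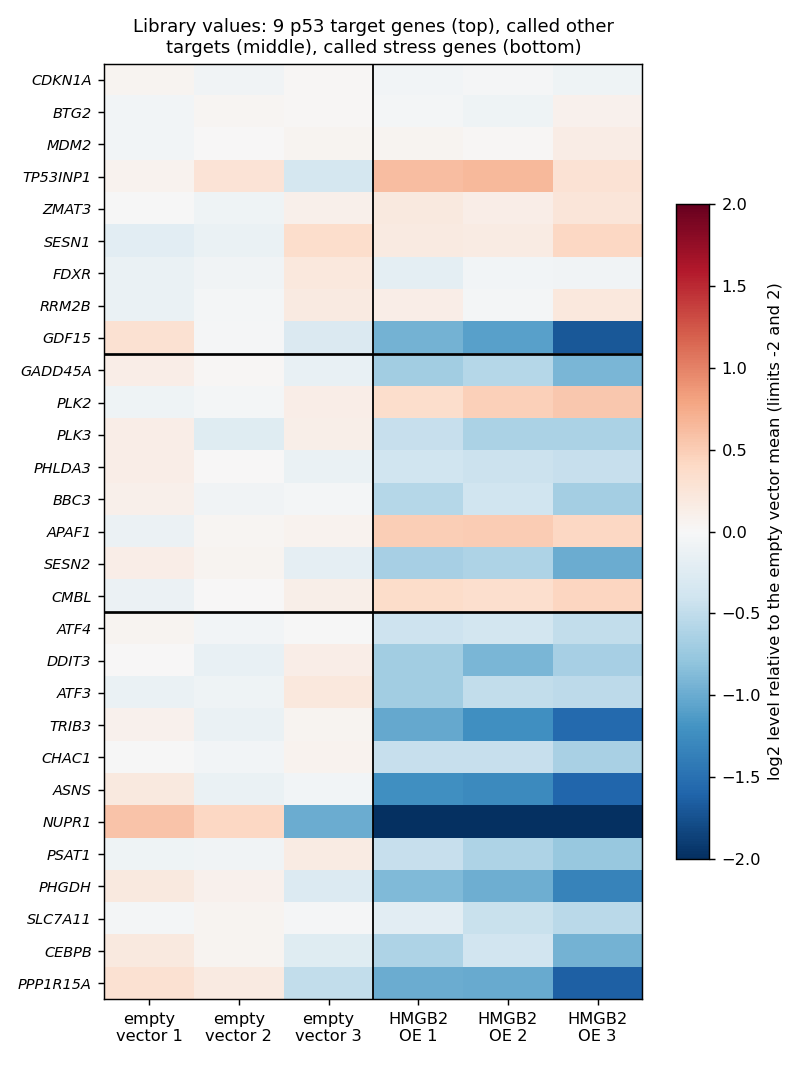
Log2 level in each library relative to the empty vector mean for the 9 p53 target genes (top), called other p53 targets (middle) and called integrated stress response genes (bottom); colours end at -2 and 2, which NUPR1 reaches. GDF15 is blue in the 3 overexpression libraries, at -0.95, -1.08 and -1.69, while CDKN1A stays between -0.08 and 0.05 throughout.

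Relatives of the 9 genes were read last, as 10 genes that share a family but include members not induced by p53. Of these, 1 was called higher and 2 lower, where 2.29% and 2.64% of all genes were called. Without empty vector replicate 3, 3 were called higher and 2 lower, against 8.31% and 9.46% of all genes. The replicate block and the term for the libraries numbered 3 each gave 3 and 2 as well. Those 2 fits called 886 higher and 940 lower of 14552 genes, and 1374 and 1359 of 15777. SESN3, the sestrin that is a FOXO target, rose from 197, 211 and 261 normalized counts to 342, 355 and 351 (log2 fold change 0.65, SE 0.16, adjusted p = 0.00321), whereas SESN2 fell as given above and SESN1 lay between them at 0.24 without a call. BTG1, the closest relative of BTG2, fell from 10376, 11580 and 11264 to 9060, 8104 and 8336 (log2 fold change -0.38, adjusted p = 0.0058). SESN3 and BTG1 were each called in 9 of 14 alternatives, and the direction held in all 14. The call of SESN3 ended without any library other than empty vector replicate 3 (adjusted p from 0.0685 to 0.147). That of BTG1 ended without empty vector replicate 2 or any overexpression library, and by edgeR (adjusted p from 0.0593 to 0.2).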

How the data were processed

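Read quality control by the authors used FastQC and Trimmomatic, and alignment was to hg38; the submitters' processing notes also name bcl2fastq 2.20 and STAR. The deposited tables hold raw counts per gene, not normalized, in STAR's layout; column 2, for either strand, was used because the library kit does not mark strand. It drops reads in places shared by overlapping genes. The STAR version and the annotation were not given in the sources used here. Of 58302 IDs, 57532 matched GENCODE 44. The 4 summary lines of each table were left out.

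The main test was DESeq2 1.42.0 (R 4.3.3, default Wald test, group alone), as in the study's methods, with Benjamini-Hochberg adjustment over all genes and calls at 0.05. Normalized counts are counts over size factors. List medians per library used log2 of the normalized count plus 1. Fits were tested on simulated data. Named genes were the 9 targets, HMGB2 and, from each other list, every called gene up to the 6 with the smallest adjusted p, plus the 3 most abundant uncalled targets; others are marked in the text as named after their values were seen. Members and lists were chosen with earlier results of these data known. Depth was 45925053 to 56755212 assigned reads, so counts of the 9 genes rest on 60 or more reads per library. Alternatives were edgeR 4.0.16, TMM factors, a filter of 10 counts in 3 libraries, no independent filter, summed strand columns, a replicate block, leaving out libraries, a term for the third replicates, and replicates 1 and 2 alone. The smallest exact permutation p with 3 against 3 is 0.1, so none was used for single genes. Of the other p53 targets, 1 is counted in its list but is not reported here.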

Additional observations from a re-analysis of the deposited data

How the results depend on the processing

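Of 126 comparisons of a log2 fold change of the 9 p53 targets with its value under an alternative, 120 kept direction and call. GDF15 was called lower in all 14, and the median over the 9 genes ranged from 0.03 to 0.10. BTG2 changed sign at values near 0 when single libraries were left out (0.00889, 0.00408, 0.00507 and 0.0285, range -0.0599 to 0.0285), as did FDXR (range -0.18 to 2.1e-05); SESN1 became called (0.43). When single libraries were left out, 0 to 1 of the 9 genes were called higher, and 0 to 6 of the other targets higher and 2 to 7 lower. The replicate block and the term for the third replicates each called 8 other targets lower, and replicates 1 and 2 alone called 5 higher; the cause was not tested. Deviations of same-numbered libraries correlated at 0.0906, 0.142 and 0.349 (replicates 1 to 3) over 16692 genes. Replicates 1 and 2 were not clearly paired by number, since their differently numbered libraries correlated at 0.212 and 0.101. The libraries numbered 3 deviated together (0.349). Empty vector replicate 3 correlated at -0.137 and -0.253 with overexpression replicates 1 and 2. Overexpression replicate 3 correlated at -0.272 and -0.217 with empty vector replicates 1 and 2. Deviations were taken from the group mean and cancel out within a group. These negative values therefore follow from the positive one and add nothing separate. With the replicate block, 886 genes were called higher and 940 lower, against 432 and 498; no call of the 9 genes changed. Over all genes, edgeR called 215 higher and 255 lower, the term for the third replicates 1374 and 1359, replicates 1 and 2 alone 1203 and 1418, and single libraries left out 155 to 1334 and 208 to 1520. Depth limits TP53INP1 most, at 60 to 140 reads per library.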
